A study of Mus musculus with 3 samples.

Results

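The 49 genes described here drive and mark progress through the cell cycle, and they fall into 3 role groups, with 8 genes of the passage from G1 into S phase, 13 genes of DNA replication and its nucleotide supply, and 28 genes of mitosis and cytokinesis. A gene belonged to the set when the probe name on the array, or the current RefSeq symbol of the probe's accession, was on a written list of names, and the rule uses no measured value. All 49 were found among the 35449 genes on the array, on 68 probes in all. Primary mouse embryonic fibroblasts (MEF) of C57BL/6 mice had been cultured without BP (control), with 10 µg/ml BP (BP10) or with 40 µg/ml BP (BP40), where BP is n-butylidenephthalide, a phthalide from the root of Angelica sinensis. MEF of this kind are grown from digested trunk tissue of mid-gestation embryos, so each culture is a mixed primary culture and not a cell line. The deposited label gives the treatment of the control as none, the study's text names DMSO for it, and how long BP was present before RNA was taken is not given in the sources used here. Total RNA of 1 culture per condition was labelled with Cy3 and hybridized to 1 single-colour Agilent array each, 3 arrays in all, and the question was which genes differ in level between the 3 conditions.

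The cell cycle runs on cyclin-dependent kinases (CDKs), whose cyclin partners are made and destroyed in turn. D-type cyclins with Cdk4 and E-type cyclins with Cdk2 inactivate the retinoblastoma protein, which frees E2F factors to switch on the genes of DNA replication, and cyclin B with Cdk1 then drives the cell into mitosis. Genes of S phase and of mitosis are transcribed in waves, so in an unsynchronized culture their mRNA level follows both how many cells are cycling and how much mRNA each cell holds, and these cannot be told apart in bulk RNA.

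With 1 array per condition there was no spread between cultures and no test, so every ratio below compares 2 arrays. The level of a gene is the log2 of its processed signal minus the 75th percentile of the gene spots on the same array, a ratio is the difference of 2 such levels, and a gene is represented by the probe well above background on the most arrays, then by the brightest. Of the gene spots, 81.7% (control), 68.3% (BP10) and 69.1% (BP40) were well above background, and none was saturated. All 49 members were well above background on all 3 arrays, as were 70.6% of all genes. The spread the arrays do give is small between spots of one probe (median SD of log2 signal 0.14, 0.09 and 0.09 on the 3 arrays) and larger between different probes of one gene, where the median SD of the ratio was 0.33 at BP10 and 0.26 at BP40, both against control, and 0.24 between the doses. The 3 arrays lay on 1 slide, but the control array was scanned in another session than the BP10 and BP40 arrays, so a ratio to control cannot tell apart treatment, culture and session of scanning. All 10 fibroblast markers looked at (among them Col1a1, Vim and Thy1) were well above background on every array, while Epcam and Cdh1 of epithelium, Cdh5 of endothelium and Alas2 of red cells were so on none. All 6 macrophage markers, Pecam1, Kdr and Tek of endothelium and Krt8 and Krt18 of epithelium were also above background on every array. So were Hba-a1 and Hbb-bh1 of red cells and Myod1, Myog, Des and Actc1 of skeletal muscle.

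The cell cycle genes differed little between the 3 arrays. No member reached a 2-fold difference in BP10 against control, in BP40 against control or in BP40 against BP10, with ratios running from -0.49 to 0.84, from -0.66 to 0.44 and from -0.68 to 0.48. Over all genes, 13.0%, 11.6% and 3.65% were 2-fold apart with a probe that was well above background on one or both arrays. Most of those genes were dim, whereas 43 of the 49 members had a mean level above 0, and among the 10949 genes that bright the shares were only 2.20%, 1.75% and 1.70%, so a count of 0 among 43 is near the background and is not a result about these genes. At 1.5-fold 1 member passed in each comparison, namely Ccnd2 (higher on BP10 than on control, and lower on BP40 than on BP10) and Kif23 (lower on BP40 than on control), against 28.5%, 26.6% and 13.3% of all genes and 10.4%, 9.85% and 10.7% of the bright genes. Ratios larger than the median SD between probes of one gene were seen in 8, 15 and 25 of the 49 members, that is in 16.3%, 30.6% and 51.0%. The same held for 62.5%, 66.4% and 56.3% of all genes and for 33.0%, 41.8% and 52.8% of the bright genes, so the share among the members lay below both backgrounds in the ratios to control and near them between the 2 doses.

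**Figure D1:**
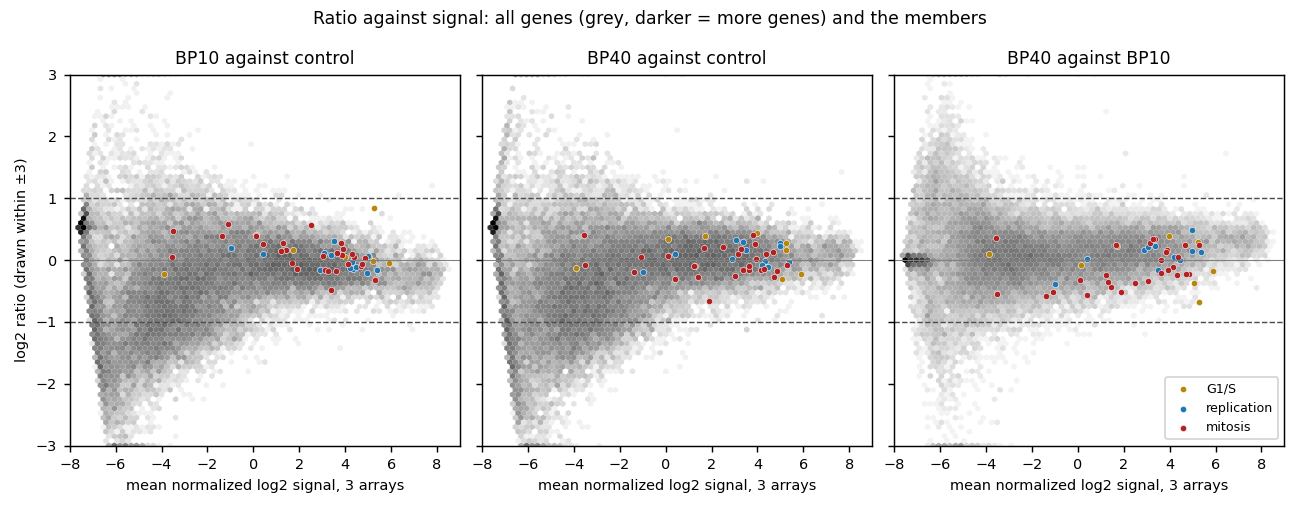
Log2 ratio (vertical axis, drawn within ±3) against mean normalized log2 signal (horizontal axis, mean of the 3 arrays) for all 35449 genes in grey, darker where more genes fall, and for the 49 members as coloured points, one panel per comparison of 2 arrays. Dashed lines mark 2-fold; the members sit inside them, mostly among bright genes, while the genes beyond 2-fold are mostly dim.

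The promoters of the role groups are described next, because the groups differ in the sequence elements that S phase and mitosis genes are known for. A window from 250 bases before to 50 bases after the start site was available from RefSeq (assembly GRCm38.p6) for 39 of the 49 members, 42 promoters in all. It was searched on both strands for CCAAT, for the E2F forms TTTCCCGC, TTTCGCGC, TTTGCCGC and TTTGGCGC, and for TTTGAA and TTTAAA, the core of the cell cycle genes homology region (CHR). Of the 23 mitosis promoters 87.0% held a CHR core and 78.3% held CCAAT, against 27.6% and 37.4% of all 32851 promoters in the table, and 73.9% held both against 10.7%. An E2F form lay in 46.2% of the 13 replication promoters and in 4.35% of the mitosis promoters, against 2.26% of all promoters. In the 6 G1/S promoters the shares were 16.7% for E2F, 33.3% for CCAAT and 16.7% for CHR. A match is a description of the letters and neither a bound site nor a cause of any level reported here. The 160 bases before the start site are printed, 5′ to 3′ on the gene's strand, for 1 G1/S, 1 replication and 3 mitosis genes. The promoters printed all hold matches and do not stand for their groups. Among other members described below, E2f1, Cdt1 and Tyms held no match in these 160 bases. Ccne1 and Mcm2 held only a CHR core there, and Pcna, Ttk and Kif23 held only CCAAT or its complement. Every match is in capitals.
Cdk2, chr10:128705052-128705211, minus strand: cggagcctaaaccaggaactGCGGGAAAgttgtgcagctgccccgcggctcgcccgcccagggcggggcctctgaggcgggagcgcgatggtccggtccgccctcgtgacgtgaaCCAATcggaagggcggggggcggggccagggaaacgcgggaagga
Mcm5, chr8:75109349-75109508, plus strand: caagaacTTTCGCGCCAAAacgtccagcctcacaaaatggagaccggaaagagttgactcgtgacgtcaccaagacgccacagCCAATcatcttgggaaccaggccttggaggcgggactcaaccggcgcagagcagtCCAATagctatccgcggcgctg
Ccnb1, chr13:100786487-100786646, minus strand: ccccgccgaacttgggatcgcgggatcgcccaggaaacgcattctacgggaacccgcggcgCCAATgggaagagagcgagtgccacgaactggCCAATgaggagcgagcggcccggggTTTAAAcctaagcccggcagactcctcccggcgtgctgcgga
Top2a, chr11:99024190-99024349, minus strand: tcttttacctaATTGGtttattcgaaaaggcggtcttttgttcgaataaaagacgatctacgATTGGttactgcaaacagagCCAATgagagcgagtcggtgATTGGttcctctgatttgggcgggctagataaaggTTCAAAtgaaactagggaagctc
Mki67, chr7:135716380-135716539, minus strand: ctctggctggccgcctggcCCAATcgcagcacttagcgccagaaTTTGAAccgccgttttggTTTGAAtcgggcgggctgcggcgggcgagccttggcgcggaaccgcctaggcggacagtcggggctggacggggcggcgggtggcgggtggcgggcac
In Cdk2 the capitals are 1 E2F form 140 bases before the start site and 1 CCAAT. In Mcm5 they are 2 E2F forms, on opposite strands and overlapping, 153 and 149 bases before the start site, and 2 CCAAT. Ccnb1 shows 2 CCAAT and a CHR core 42 bases before the start site, Top2a shows 4 CCAAT or its complement and a CHR core 23 bases before it, and Mki67 shows 1 CCAAT and 2 CHR cores.

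Among the G1/S genes, the 3 D-type cyclins, which answer growth signals and activate Cdk4, did not move together on the probes used. Ccnd2 read 4.93 on control, 5.77 on BP10 and 5.09 on BP40. The BP10 array stood apart from the other two for this gene, with a ratio of 0.84 to control (1.79-fold) and of -0.68 for BP40 against BP10. Both ratios exceeded the median SD between probes, but Ccnd2 has 1 probe (mm9, chr6:127098696-127098755), and the ratio of BP40 to control (0.16) did not exceed it. Ccnd1, which serum and growth factors induce, read 5.14 on control, 5.19 on BP10 and 4.83 on BP40, so that it was lowest on BP40, by a ratio of -0.31 to control. Ccnd3 read 5.14, 5.13 and 5.41, highest on BP40. Its second probe, also above background on all arrays, read 3.94, 4.17 and 4.09. With that probe all 3 D-type cyclins were highest on BP10, Ccnd1 by a ratio of only 0.06 to control.

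Downstream of the D-type cyclins, Ccne1, which with Cdk2 starts S phase, read 3.82 on control, 3.87 on BP10 and 4.25 on BP40. Cdk2 itself read -0.13 on control, 0.28 on BP10 and 0.21 on BP40, with both BP arrays above the control by ratios of 0.41 and 0.33. E2f1, the transcription factor that retinoblastoma protein restrains, read 1.52, 1.68 and 1.91. These 3 genes were all higher on both BP arrays than on control, but none by 1.5-fold on the probe used. The second, dimmer probe of Ccne1 gave 1.06 at BP10 and 0.80 at BP40 against control. With the median of its probes Ccne1 passed 1.5-fold at BP40 (0.62). Cdk4, the kinase partner of the D-type cyclins, was lowest on BP40 with a ratio of -0.22 to control, and Ccne2 was dim, between -3.99 and -3.76. The median ratio of the 8 G1/S genes was 0.05 for BP10 against control, 0.22 for BP40 against control and 0.01 for BP40 against BP10, where the median of all genes was -0.23, -0.11 and 0.06 and that of the bright genes -0.10, 0.06 and 0.15.

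The ratios of the replication genes spanned the least of the 3 groups. Mcm2 to Mcm7 encode the 6 subunits of the ring-shaped helicase that is loaded on DNA in G1 and unwinds it in S phase, and their 6 ratios lay between -0.17 and 0.31 at BP10 and between -0.11 and 0.15 at BP40. None of these exceeded the median SD between probes in any comparison. Mcm2 read 2.94 on control, 2.78 on BP10 and 2.95 on BP40. Mcm5 was the member of the ring that stood off the others, reading 3.35, 3.66 and 3.51, highest on BP10, whereas at this scaling the other 5 were lowest on BP10. Cdt1, which loads the helicase together with Cdc6, read 2.92 on control, 3.04 on BP10 and 3.25 on BP40, and the ratio of BP40 to control was 0.32. Pcna, the sliding clamp of DNA polymerase and a common proliferation marker, read 4.94, 4.74 and 5.22. Its ratio of BP40 to BP10, 0.48, was the largest of the replication genes in any comparison. Among the scalings that rest on the genes it was least, 0.20, once the median ratio of genes of like brightness was taken off.

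Of the 4 genes that supply deoxynucleotides, Tyms (thymidylate synthase) read -0.98 on control, -0.80 on BP10 and -1.18 on BP40, lowest on BP40. Tk1 (thymidine kinase) and Rrm2, the regulated subunit of ribonucleotide reductase, were both highest on BP40, with ratios to control of 0.30 and 0.22, and Rrm1, the large subunit, had ratios of -0.12 and -0.11. Over the 13 replication genes the median ratio was -0.03 for BP10 against control, 0.01 for BP40 against control and 0.04 for BP40 against BP10. Of these genes 11 were higher and 2 lower on BP40 than on BP10 at this scaling. The share lower was 15.4%, beside 42.0% of all genes and 31.5% of the bright genes, so most bright genes were higher too. With quantile normalization 9 of the 13 were lower, so their direction between the doses depends on the scaling.

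The ratios of the mitosis genes ran from -0.49 to 0.57 at BP10 and from -0.66 to 0.41 at BP40. Their median ratio was 0.08 at BP10 and -0.09 at BP40 against control, and it was -0.21 for BP40 against BP10, where 17 of 28 were lower on BP40. That is 60.7%, beside 42.0% of all genes and 31.5% of the bright genes. Over the other settings for scaling, background correction and probe choice, the spike-in scaling aside, the number lower on BP40 than on BP10 ran from 17 to 22 of 28. The BP10 array held the highest level for 14 of the 28, beside 20.5% of all genes, and the BP40 array the lowest for 13 of the 28, beside 29.8% of all genes. The comparisons of BP10 with control and of BP40 with BP10 share the BP10 array, so a high BP10 reading enters both. The median of the mitosis genes lay 0.25 below that of the replication genes for BP40 against BP10. The gap ran from -0.30 to -0.22 over the settings that can change it. A scaling that shifts a whole array by 1 constant, as on the spike-in probes, leaves such a gap as it is. Against control the gap was 0.11 at BP10 and -0.10 at BP40. No test of these gaps was possible with 1 array each.

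**Figure D2:**
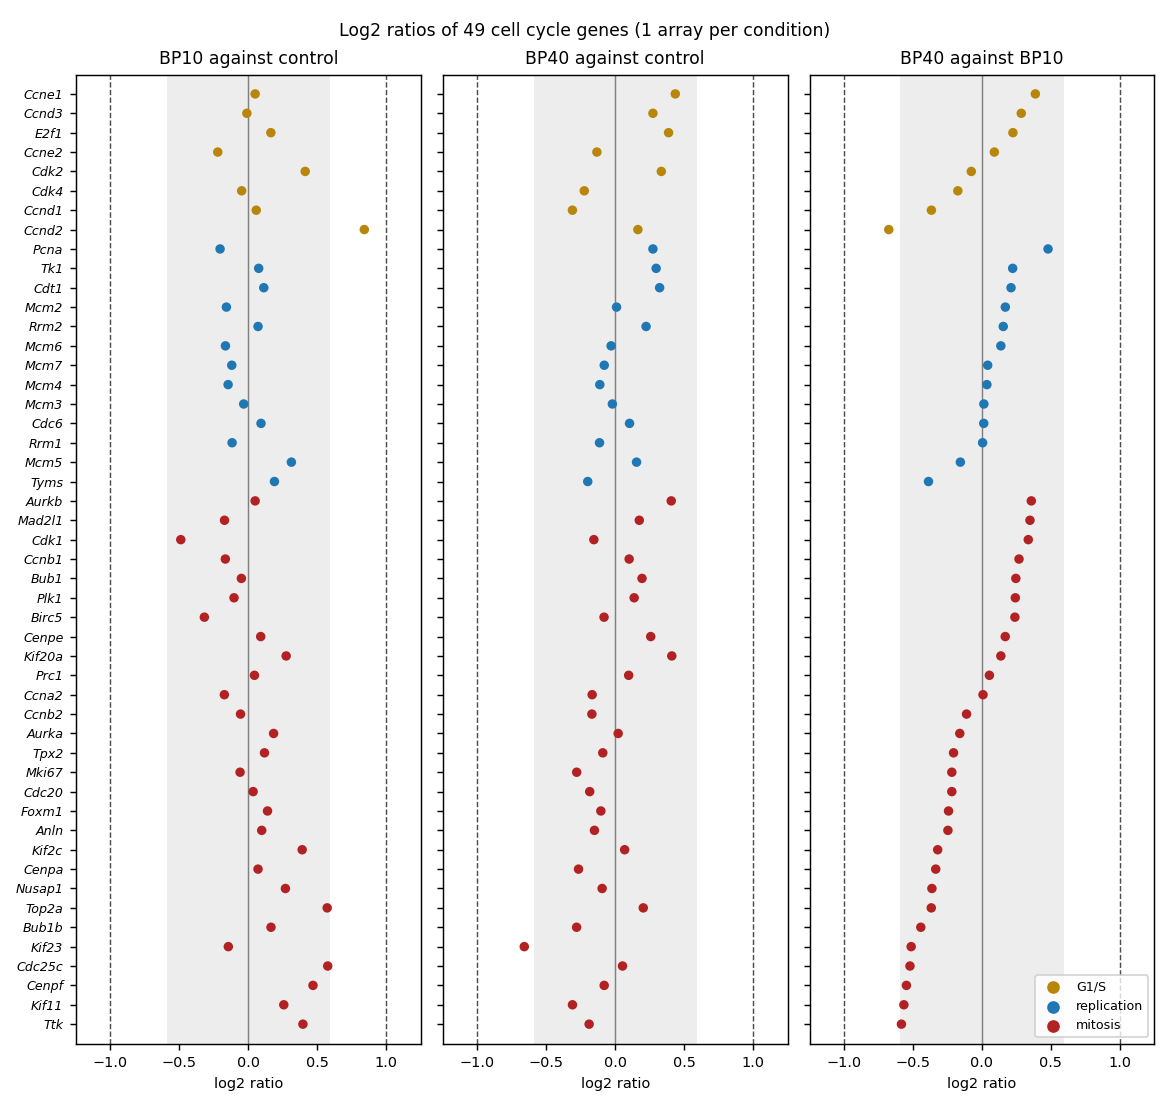
Log2 ratio of each of the 49 members (rows, grouped by role and ordered within a role by BP40 against BP10) in the 3 comparisons of 2 arrays, coloured by role. The grey band marks 1.5-fold and the dashed lines 2-fold; only Ccnd2 and Kif23 leave the band, and the mitosis genes lean to the left in the panel of BP40 against BP10.

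The lean included 6 genes grouped here, for description only, as spindle and chromosome proteins. All 6 (Kif11, Kif2c, Nusap1, Tpx2, Top2a and Mki67) were lower on BP40 than on BP10, with a median ratio of -0.34 and a range from -0.57 to -0.21. They were lower under every other setting too. Related mitosis genes placed in other groups went both ways in this comparison. Kif20a, Prc1 and Cenpe were higher on BP40 (0.14, 0.05 and 0.17), and Kif23 and Anln were lower (-0.51 and -0.25). Top2a, the topoisomerase that untangles sister chromosomes, read 2.25 on control, 2.82 on BP10 and 2.45 on BP40. It was highest on BP10, with a ratio of 0.57 to control and -0.37 for BP40 against BP10. Kif11, the motor that pushes the spindle poles apart, read 0.44, 0.70 and 0.13, the lowest on BP40. Mki67, the gene of the Ki-67 antigen used to count cycling cells, read 4.85 on control, 4.78 on BP10 and 4.57 on BP40. Its ratio of BP40 to control, -0.28, just exceeded the median SD between probes, and its second probe gave -0.12.

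At this scaling the largest ratio to control at BP40 belonged to Kif23 (with quantile normalization and with brightness subtracted it was that of Aurkb, 0.83 and 0.89), a motor of the central spindle that is needed for cytokinesis. Kif23 (probe at mm9, chr9:61767492-61767732) read 2.15 on control, 2.01 on BP10 and 1.49 on BP40. It was lowest on BP40, with a ratio of -0.66 to control (1.58-fold) that ran from -0.74 to -0.62 over the other settings, the spike-in scaling aside (-1.43 with it). The other 3 cytokinesis genes did not share this: Kif20a was higher on BP40 than on control by 0.41, Prc1 was higher by 0.10, and Anln had a ratio of -0.15. The second Kif23 probe was not above background on any array and gives no reading of the gene.

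The kinases and cyclins that trigger mitosis went both ways. Ccnb1 (cyclin B1) read 3.16 on control, 2.99 on BP10 and 3.26 on BP40, and Cdk1, its kinase, read 3.59, 3.10 and 3.44, so that both were lowest on BP10. Cdc25c, the phosphatase that activates Cdk1, read -1.30, -0.72 and -1.24, and was highest on BP10 with a ratio of 0.57 to control. Plk1 and Aurka, kinases of centrosome and spindle assembly, had ratios to control between -0.10 and 0.18 on the BP arrays. Over these 9 regulators, Foxm1 and Aurkb included, the median ratio was -0.06 at BP10 and 0.02 at BP40. The 5 genes of the spindle checkpoint, which holds anaphase until every chromosome is attached, did not move together either. Ttk, the kinase at the head of the checkpoint, read -1.44, -1.04 and -1.63, with a ratio of -0.58 for BP40 against BP10, and that of Bub1b was -0.44, whereas Mad2l1 and Bub1 were higher on BP40 than on BP10 by 0.35 and 0.25. The other probes of Mad2l1 gave -0.34 and -0.53 for this comparison, so its direction depends on the probe, and with the median of all probes 4 of the 5 checkpoint genes were lower on BP40. Of the kinetochore genes, Cenpf and Cenpa were lower on BP40 than on BP10 (-0.55 and -0.34), and Cenpe and Birc5 (survivin) were higher (0.17 and 0.24). The other probes of Birc5 gave -0.05 and -0.09, so its direction depends on the probe too.

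Dim and bright mitosis genes differed in these ratios. The 4 dimmest (Cdc25c, Ttk, Cenpf and Aurkb, with mean levels of 0 or below) had a median ratio of 0.43 for BP10 against control and of -0.53 for BP40 against BP10. Aurkb did not share this, with ratios of 0.05 and 0.36. The 24 brighter ones had medians of 0.06 and -0.18. For BP10 against control the median was -0.23 over all genes and -0.10 over the bright genes. Whether low signal plays a part in the ratios of the dim members was not tested. Among the 24 brighter ones 14 were lower on BP40 than on BP10. Once the median ratio of genes of like brightness was taken off, 22 of the 28 mitosis genes were lower on BP40 than on BP10.

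**Figure D3:**
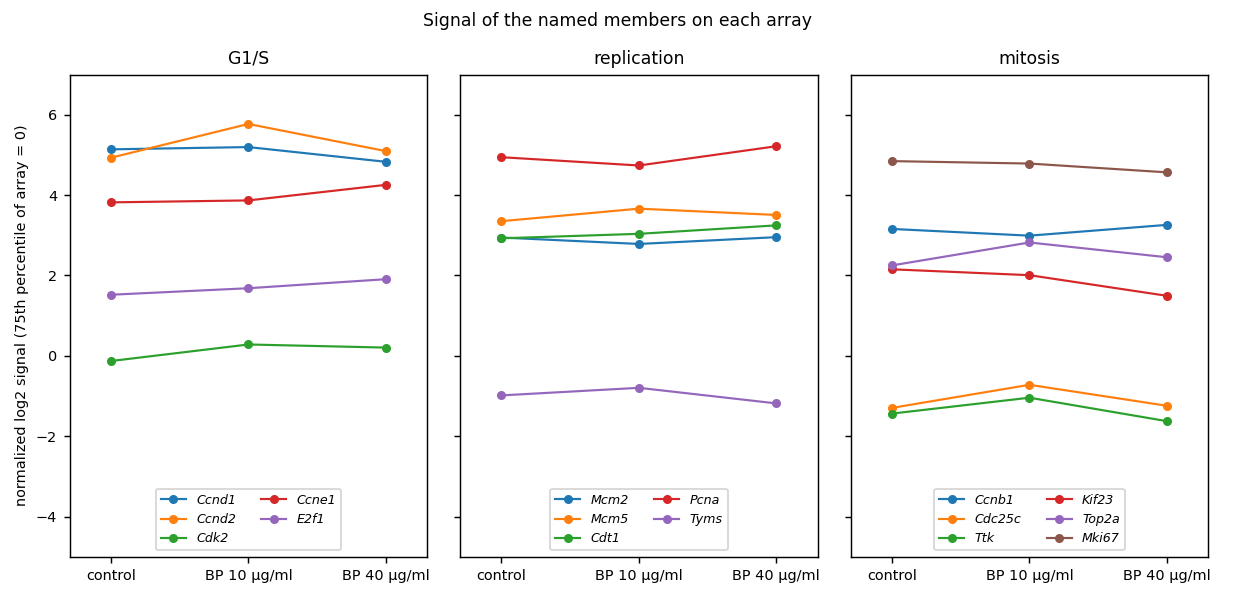
Normalized log2 signal (vertical axis, 0 is the 75th percentile of the array) of 16 members on the control, BP10 and BP40 arrays (horizontal axis), in panels by role, with 1 point per array and no error bar because each condition has 1 array. Ccnd2, Top2a, Cdc25c and Ttk peak on BP10, Kif23 is lowest on BP40, and only Ccnd2 and Kif23 differ by 1.5-fold or more between any 2 arrays. Levels of different genes come from different probes and are not comparable with each other.

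Different probes of one gene gave different ratios, which bears on every single-gene value above. For 13 members at least 2 probes on the gene's strand were well above background on all arrays, and the most upstream and most downstream of them were compared. For BP10 against control the upstream probe had the higher ratio in 11 of the 13, with a median difference of 0.23, and over the 6721 genes with such probes it was higher in 60.2%, with a median difference of 0.14. For BP40 against BP10 the order turned, with the upstream probe higher in 1 of 13 (median difference -0.17) and in 39.6% of all such genes (-0.11). Ccnb1 differed most. Its probe near the 3′ end, used above (mm9, chr13:101548722-101548781), had a ratio of -0.17 for BP10 against control, and its most upstream probe (chr13:101553449-101553508) had 1.19. Ccne1 gave 0.05 downstream and 1.06 upstream, Mad2l1 gave -0.17 and 0.83, and Foxm1 gave 0.14 and 0.91. In Cdk1 the used probe, which is the upstream one, gave -0.49, the downstream probe gave 0.13, and another probe that overlaps the used one gave -1.01. The direction of BP10 against control for Ccnb1, Mad2l1 and Cdk1 thus depends on the probe. The same holds for Birc5 (0.15 upstream and -0.32 downstream) and Mki67 (0.17 and -0.06). It holds also for Ccnd3 (0.23 and -0.01) and Tpx2 (0.12 and -0.05), whose downstream ratios lay near 0. The position of probes moves with the ratios of the members and of all genes alike, and its part in the differences between role groups was not tested.

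**Figure D4:**
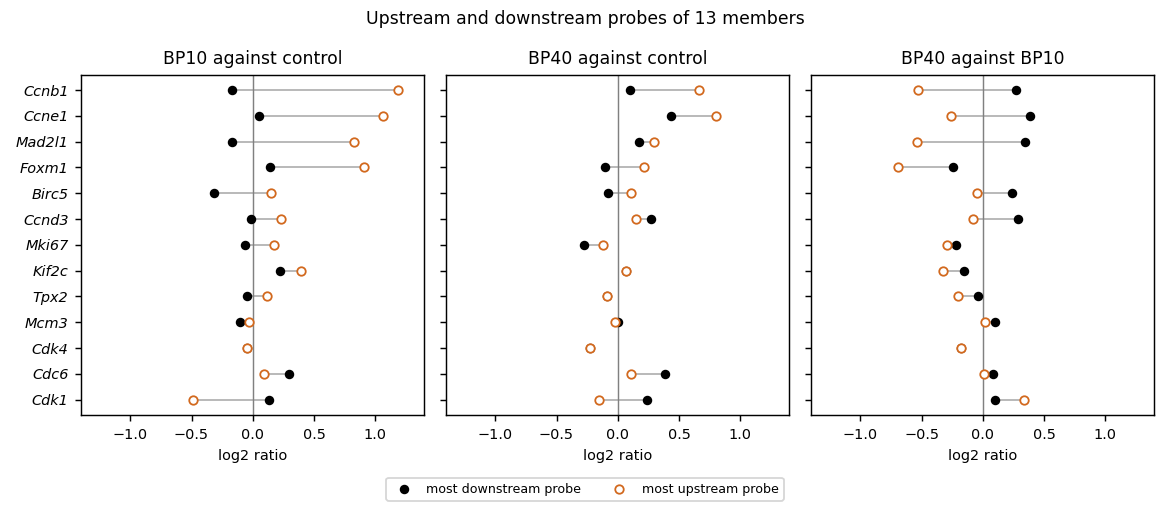
Log2 ratio (horizontal axis) given by the most upstream probe (open points) and the most downstream probe (filled points) of the 13 members with several probes well above background, in the 3 comparisons, with a grey line joining the probes of a gene. Upstream probes lie to the right for 11 of 13 genes in BP10 against control and for 1 of 13 in BP40 against BP10.

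The scaling sets the direction of all members at once. The 9 E1A probes well above background on all arrays are controls of the array design meant for added spike-in RNA. On the gene scale their median ratio was -0.14 for BP10 against control, 0.77 for BP40 against control and 0.79 for BP40 against BP10. If the arrays are scaled on these probes in place of the 75th percentile of the genes, all 49 members read lower on BP40 than on control, with a median of -0.79, and so do the genes as a whole, with a median of -0.89. The spike-in probes were themselves spread, from -0.69 to 0.99 for BP40 against control. Statements on direction above are thus relative to the genes on the array.

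The wider cell cycle machinery was taken as 102 other genes on lists of the same 3 roles. At 1.5-fold 9 of the 102 were higher and 6 lower in BP10 against control, 1 was higher and 2 lower in BP40 against control, and 4 were higher and 8 lower in BP40 against BP10. At that size 28.5%, 26.6% and 13.3% of all genes and 10.4%, 9.85% and 10.7% of the bright genes passed. At 2-fold, 2 of the 102 passed in BP10 against control, 0 in BP40 against control and 2 in BP40 against BP10. The shares of all genes and of bright genes at 2-fold are those given above, and these counts are not a result about the lists. Cdk6, Hjurp and Kifc1, named next, were dim, with levels below 0 on every array. Cdk6, the second kinase partner of the D-type cyclins, read -2.86 on control, -1.77 on BP10 and -3.40 on BP40, so that like Ccnd2 it was highest on BP10, with ratios of 1.09 to control and -1.63 for BP40 against BP10. Hjurp, the chaperone that deposits the centromere histone Cenpa, read -1.42, -0.29 and -0.97, also highest on BP10. Its ratio to control at BP10 was 1.13 on this probe and 0.89, 0.55 and -0.26 on its other probes, so its direction depends on the probe. Kifc1, a spindle motor, read -2.91, -3.51 and -2.44, with a ratio of 1.07 for BP40 against BP10. The other 50 mitosis genes had a median ratio of -0.01 for BP40 against BP10 and the other 36 replication genes 0.18. This gap of -0.19 ran from -0.21 to -0.15 over the settings that can change it. Of those 50 genes 26 were lower on BP40 than on BP10. For BP10 against control the gap between these lists was -0.05 (from -0.09 to -0.03 over the same settings). It was of opposite sign to the gap of 0.11 between the member groups (from 0.06 to 0.19). The 7 inhibitors of CDKs, the brakes of G1, were all lower on BP10 than on control, with a median ratio of -0.48 (with other settings 5 to 7 of them were lower), where 65.1% of all genes and 61.4% of the bright genes were lower. On BP40 5 of 7 were lower than on control (median -0.11), where 57.7% of all genes were. Their probes disagreed too: for BP10 against control other probes gave 0.82 and 0.57 for Cdkn1a, 0.62 for Cdkn2b and 0.15 for Cdkn1b. Cdkn1c (p57) was the 1 inhibitor 2-fold apart, reading 2.18, 1.55 and 0.87 with a ratio of -1.31 for BP40 against control. Cdkn2a read 3.33, 2.43 and 2.83, and Cdkn1a (p21), a target of p53, read 4.55, 4.38 and 4.91.

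Fibroblast markers differed from control by more than the cell cycle genes did. Their median ratio over 10 genes was -0.66 at BP10 and -0.63 at BP40. All 10 were lower on BP10 than on control, where 65.1% of all genes and 61.4% of the bright genes were lower. On BP40 8 of 10 were lower than on control, where 57.7% of all genes and 42.0% of the bright genes were. Col1a2 and Fn1 were higher there, by 0.10 and 0.15. Lum, a small matrix proteoglycan, was lower by ratios of -3.19 and -2.21, and Dcn by -1.05 and -0.49. The 6 macrophage markers had a median ratio of -0.30 at BP10 and 0.04 at BP40. Ptprc, Adgre1 and Itgam were lower on both BP arrays, while Lyz2 and Cd68 were higher on both, Lyz2 by 1.26 at BP40. The summed linear signal of the 10 fibroblast markers was 1340 on control, 956 on BP10 and 1075 on BP40, in units of each array's 75th percentile. That of the 6 macrophage markers was 32.6, 26.2 and 29.3, while that of the 49 cell cycle genes was 721, 728 and 724. The part of the cell makeup of the cultures in the ratios of the cell cycle genes was not tested.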

How the data were processed

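In all, 3 Agilent mouse 8x60K arrays, 1 per condition, were analysed. The authors deposited the scanner output, an intensity per spot that Feature Extraction 10.5.1.1 had background-corrected and detrended within each array, with no scaling across arrays. The series table they deposited repeats these intensity values, with 100% of spots inside a relative tolerance of 0.0001. The study names GeneSpring GX, with no normalization given.

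Log2 processed intensity minus the 75th percentile of gene spots (controls and outlier spots left out) was taken per array, and spots of a probe were averaged. Of 55681 gene probes, 26425 (47.5%) were named by the RefSeq symbol of their accession, the rest by the name in the scanner file. Calls needed a 2-fold (or 1.5-fold) ratio with a probe well above background on one or both arrays, and a dim partner gave a bound. Named members are those 2-fold apart in any comparison, the 4 of each role with the largest ratio, and Ccnd1, Pcna, Mcm2, Ccnb1, Mki67 and Top2a, and a few others were named for their values. The number of arrays limits the precision. The members and lists were chosen with earlier results of these data known.

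Python 3.11.15, numpy 2.4.6, pandas 2.3.3, matplotlib 3.10.9, R 4.3.3 and limma 3.58.1 (quantile normalization, and normexp with an offset of 50) were used. Calling was tested on simulated data first. Alternatives were thresholds of 1.5-fold and 3-fold, no filter or a filter on both arrays, quantile normalization, the percentile over probes above background on all arrays, subtraction of the median ratio in 20 classes of brightness, normexp, the median over a gene's probes, the series table's values, and scaling on E1A spike-in probes. Motifs were searched in RefSeq promoters of 250 bases before to 50 after the start site. Probe positions are those of mm9 in the scanner files.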

Additional observations from a re-analysis of the deposited data

How the results depend on the processing

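No paired analysis was possible because there is a single array per condition. The counts of members 2-fold apart, 0 in each comparison, became 1, 1 and 1 at 1.5-fold. They became 2 in BP10 against control (Ccnd2 1.03, Cenpf 1.05) with the median ratio at each brightness subtracted and 1 (Cdk1 -1.01) with the median of all probes. They stayed 0 with quantile normalization, with normexp and with the percentile over probes above background on all arrays. A threshold of 3-fold could not raise a count of 0 at 2-fold. Dropping the filter on dim probes, or asking for both arrays, could not change it either, because every member was well above background on every array. The counts at 1.5-fold, 1 in each comparison, became 4, 2 and 3 with quantile normalization (which moved the median of all genes at BP10 from -0.23 to -0.03), beside 23.9%, 23.1% and 12.1% of all genes. They became 6, 2 and 6 with brightness subtracted, beside 25.1%, 23.4% and 12.8%, and 2, 2 and 2 with the median of all probes, beside 27.6%, 25.7% and 14.02%. The percentile over probes above background gave 6 in BP40 against BP10, beside 12.9% of all genes. The shares of all genes at 2-fold were 9.59% with brightness subtracted and 12.5% with the median of all probes, both for BP10 against control.

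Scaling on the E1A spike-in probes was chosen after seeing the data. It gave medians of -0.55 (BP40 against control) and -0.78 (BP40 against BP10) for G1/S, -0.76 and -0.75 for replication, and -0.86 and -1.002 for mitosis. Its counts were 6 and 17 members at 2-fold in these comparisons, beside 34.7% and 18.01% of all genes, and 4, 36 and 36 at 1.5-fold in all 3, beside 26.8%, 61.8% and 48.1%. Signal near background limits Ccne2, Cenpf and Aurkb most. Ratios of named members moved by more than the median SD between probes in 40 of 336 cases, 32 of them under the spike-in scaling. That scaling shifts all ratios of a comparison by 1 constant, so its cases were set by the shift. The 48 cases under the series table could not move, because it repeats the same values. Of the rest, 4 moved with the median of all probes, 3 with brightness subtracted and 1 with normexp. With the median of all probes, Ccnb1 gave 0.53 in place of -0.17 for BP10 against control and -0.45 in place of 0.27 for BP40 against BP10. With normexp, Top2a gave -0.14 in place of 0.20 for BP40 against control. The cause was not tested.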
